A study of Mus musculus with 4 samples.

Results

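Complement is a set of blood proteins and cell-surface receptors that marks, lyses and clears microbes and damaged cells, and the liver makes most of the proteins in plasma. The genes described here are 30 complement components and regulators, chosen by name, out of 19752 genes that the array probes could be named for by accession. All 30 were on the array, with 37 probes in all, and 28 of the 30 were bright enough to test. They were measured in whole liver, in mice that were Rap1-deficient or wild-type. RAP1, encoded by Terf2ip, is a telomere-binding protein that also binds elsewhere in the genome and affects transcription. The Rap1-deficient mice (Rap1 -/-) carry a constitutive deletion in the whole body, made with a cre driven by the EIIa promoter in the early embryo and then bred out of the colony. The wild-type mice shared their strain, C57BL6/129SV (90%:10%), their tissue and their labelled age of 30 weeks, and were not treated. The study's text describes females of a somewhat later age, while the labels give no sex. It places them at the onset of obesity, with a higher mean body weight in the Rap1-deficient females. Since the deletion is in every cell of the body, a change in liver RNA cannot be told apart from a response to the state of the animal.

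RNA from Rap1-deficient and wild-type liver was hybridised on 4 2-colour arrays, read here as 3 pairs with 1 liver of each genotype. Whether each pair had its own wild-type liver, or wild-type RNA was shared or pooled between arrays, was not tested. Each array compared the genotypes directly, 3 arrays held Rap1-deficient RNA in Cy5, and a 4th held it in Cy3. The labels number this dye-swapped array 1. It was therefore read as a repeat of pair 1 and averaged with it, so that n = 3 pairs. Only pair 1 was measured in both dye orientations, so an effect of the dye does not cancel in the mean over pairs. Such an effect also enters any difference between pair 1 and the other pairs. All values below are log2 ratios of Rap1-deficient over wild-type liver, so that 1 unit is a doubling. They are listed as pair 1, pair 1 with dyes swapped, pair 2 and pair 3.

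The arrays did not repeat each other across dyes. Over all tested probes, the log2 ratios of the 3 arrays with the same dye orientation correlated at r = 0.64 to 0.85 with each other, and at -0.29 to -0.24 with the dye-swapped array after its sign was turned. These correlations are across probes, which are not independent replicates. The SD of the log2 ratio over named genes was 0.26 on the dye-swapped array and 0.46 to 0.52 on the others. Hence a gene was said to rise or fall only where it passed the limma test over 3 pairs at a false discovery rate (FDR) of 0.15 and also had 1 direction on all 4 arrays. The deleted gene met this rule as a fall on its dimmer probe, which lost signal. That Terf2ip probe gave log2 ratios of -1.74, -1.68, -1.92 and -1.91, and none of the 4 arrays held it well above background in Rap1-deficient liver. Its Rap1-deficient level lay at least 3.33-fold lower than the wild-type level (limma adjusted p = 0.0086). A second, brighter Terf2ip probe was higher in Rap1-deficient liver on all 4 arrays (log2 fold change 0.96 ± 0.087 SE, limma adjusted p = 0.033). By its brightest probe, the choice made for the other genes, Terf2ip would thus count as risen. Where either probe lies relative to the deleted part was not tested. The tissue label fitted its markers, since all 11 hepatocyte markers on the array, albumin among them, were well above background in both genotypes on every array.

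Complement is started by 3 routes. In the classical route C1q binds antibody and activates the proteases C1r and C1s, in the lectin route mannose-binding lectins bind sugars and activate the MASP proteases, and the alternative route is driven by factors B and D and held together by properdin. All lead to cleavage of C3 and then of C5, after which C6, C7, C8 and C9 assemble into the membrane attack complex that pierces the target. C8 itself is built from an alpha, a beta and a gamma chain, which are products of separate genes. Soluble and membrane-bound regulators stop the cascade on the host's own cells.

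Of the 28 tested genes, 7 passed the test, 3 higher and 4 lower in Rap1-deficient liver. Over all 13166 named and tested genes 34.1% passed, 18.0% higher and 16.1% lower, so the complement genes held no larger share of calls than the array as a whole. Only 4 of the 28 passed and also had 1 direction on all 4 arrays, where the background was 13.0%. Cd59a alone rose (background 6.02%), and C8a, C8b and C4bp fell (background 7.00%). With a dye term fitted over the 4 arrays, C8a and C8b alone of the 28 passed, both lower. That share is close to the 6.44% of all named genes that passed. This fit counts both arrays of pair 1 as separate replicates, and no other array repeats the swapped orientation. The median log2 fold change was 0.13 over the 28 genes and 0.005 over all named genes. The plot of all members by array shows C8b as the gene whose 4 values lie apart from the rest on the low side.

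**Figure D1:**
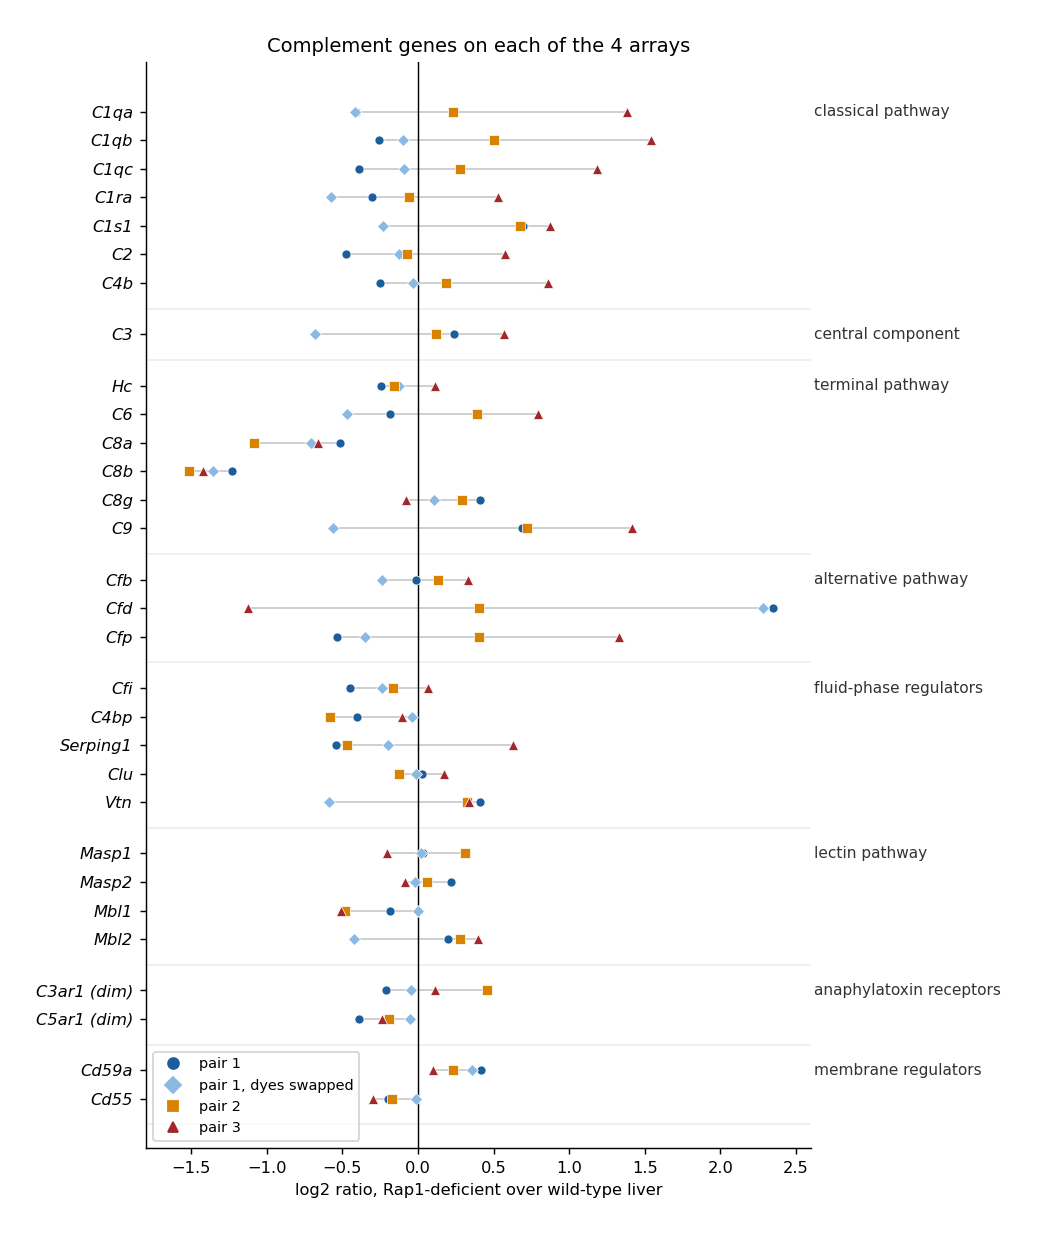
Log2 ratio of Rap1-deficient over wild-type liver (x axis) for each of the 30 complement genes (y axis), grouped by role, with 1 symbol per array and a grey line over their range. The 4 values of C8b lie between -1.51 and -1.23, while those of C1qa, C1qb, C1qc and Cfp run from below 0 in pair 1 to above 1 in pair 3 and those of Cfd from -1.12 in pair 3, where its signal was not well above background in Rap1-deficient liver, to 2.35 in pair 1; "dim" marks the 2 genes that were not tested.

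C8b, and C8a on its brighter probe, alone passed with the dye term, where 6.44% of all named genes passed. Both belong to the terminal pathway. C8a and C8b encode the alpha and beta chains, and the genes are next to each other on mouse chromosome 4, with no protein-coding gene between them. They point towards each other, with starts 110.1 kb apart. The 250 bases before each start are printed because these are the members that fell and were neighbours, with matches to 7 short motifs in capitals (GRCm38.p6, sequence from RefSeq, 5′ to 3′ on the strand of the gene). C8b lies on the plus strand and its window is chr4:104766067-104766316, C8a on the minus strand with its window at chr4:104876399-104876648.
C8b: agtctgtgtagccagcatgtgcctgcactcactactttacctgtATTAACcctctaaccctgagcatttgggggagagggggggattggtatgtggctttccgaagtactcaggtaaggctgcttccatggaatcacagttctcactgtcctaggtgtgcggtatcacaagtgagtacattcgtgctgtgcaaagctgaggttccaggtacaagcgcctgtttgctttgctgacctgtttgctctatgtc
C8a: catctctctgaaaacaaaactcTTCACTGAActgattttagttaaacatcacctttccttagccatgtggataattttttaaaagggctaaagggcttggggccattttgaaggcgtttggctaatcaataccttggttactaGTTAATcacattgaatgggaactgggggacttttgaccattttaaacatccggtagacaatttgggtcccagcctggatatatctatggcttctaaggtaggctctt
The motifs, searched on both strands, were HNF1 GTTAAT, C/EBP TTGCNNAA, FOXA TGTTTAC, HNF4 CAAAGTCCA, PU.1 GAGGAAGT, the interferon-gamma activated site TTCNNNGAA and the telomere repeat unit TTAGGG. They were chosen with the expression values known. Both windows hold the HNF1 motif, 201 bases before the start of C8b, where it reads ATTAAC, and 102 bases before that of C8a. This motif occurred in 6.43% of 32851 mouse promoter windows of the same length, and in 7 of 24 windows belonging to 22 of the complement genes. C8a also holds the interferon-gamma activated site, as did 7.02% of all windows and 2 of the 24. No TTAGGG was found in either window, while 10 of the 24 complement windows and 9.32% of all windows held it. FOXA and HNF4 matched none of the 24 and 3.17% and 0.384% of all windows. A match is a string of letters and no evidence that a factor binds there.

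C8b gave log2 ratios of -1.23, -1.35, -1.51 and -1.42. Its normalized log2 intensity was 10.92, 10.60, 10.70 and 10.71 in Rap1-deficient liver, against 12.15, 11.95, 12.21 and 12.13 in wild-type liver. Hence the highest Rap1-deficient value lay a full log2 unit below the lowest wild-type value, on either dye. How many of all named genes have genotypes that lie apart was not counted. C8b fell 2.65-fold (log2 fold change -1.41 ± 0.089 SE, n = 3 pairs, limma adjusted p = 0.017), and it ranked 13th from the lowest among the 13166 named genes. With the dye term the log2 fold change was -1.37 (limma adjusted p = 0.017). Of 13 alternative settings only leaving out pair 2 ended the call for C8b (adjusted p = 0.267), with a log2 fold change of -1.36. In that setting 4 named genes passed on the whole array.

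C8a gave log2 ratios of -0.52, -0.71, -1.08 and -0.66 on its brighter probe. The normalized log2 intensities were 11.75, 11.70, 11.22 and 11.76 in Rap1-deficient liver, against 12.27, 12.41, 12.31 and 12.41 in wild-type liver. C8a fell 1.72-fold on this probe (log2 fold change -0.78 ± 0.12 SE, limma adjusted p = 0.040). With the dye term it was -0.73 (limma adjusted p = 0.075). The call was lost without pair 2 (-0.63, adjusted p = 0.267) and when the dye-swapped array counted as a 4th replicate (-0.74, adjusted p = 0.177). The second C8a probe, which was dimmer but well above background on all arrays, gave 0.11, -0.55, -0.40 and -0.04. It did not pass (log2 fold change -0.22 ± 0.10 SE, limma adjusted p = 0.191), and its sign turned between dyes in pair 1, so the 2 C8a probes differed in size and steadiness.

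The gamma chain did not share this pattern. C8g lies on another chromosome, and its brightest probe gave 0.41, 0.11, 0.29 and -0.08 (limma adjusted p = 0.347). A second C8g probe gave 1.18, -0.15, 0.77 and 0.51 and passed as higher (log2 fold change 0.60 ± 0.096 SE, limma adjusted p = 0.040). Its sign turned on the dye-swapped array, so no rise was called. The plot of C8 probe intensities sets the 3 chains side by side.

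**Figure D2:**
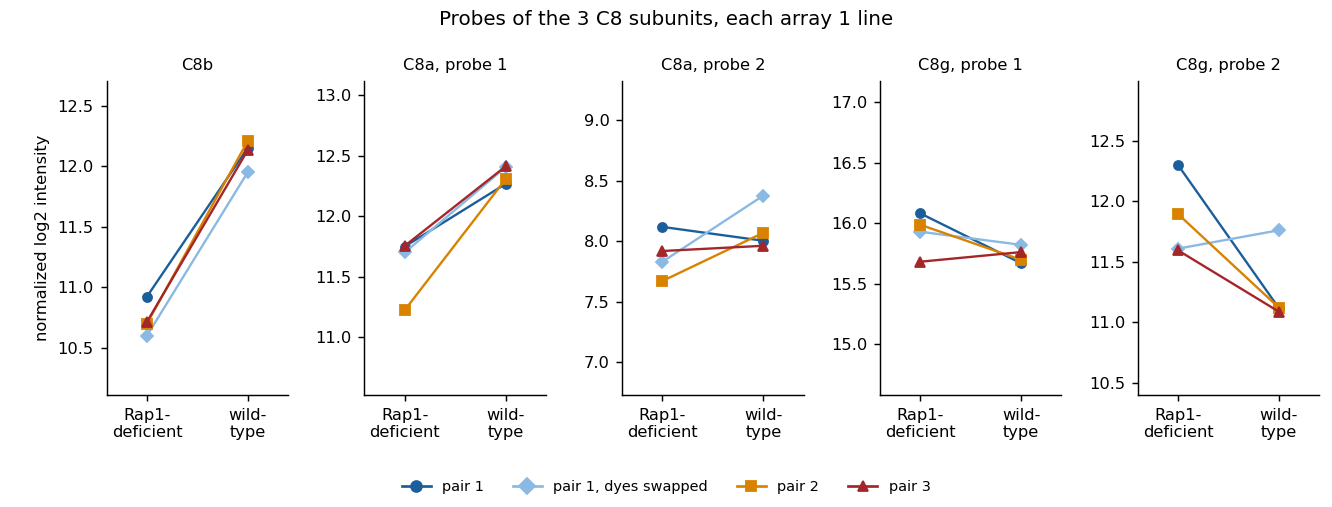
Normalized log2 intensity (y axis) of each C8b, C8a and C8g probe in Rap1-deficient (left) and wild-type liver (right), with 1 line per array and every panel spanning the same height on its own scale. All 4 lines of C8b and of the brighter C8a probe are lower in Rap1-deficient liver, while the lines of the other 3 probes run both ways.

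The other terminal genes did not follow C8a and C8b. Hc, the mouse gene for C5, gave -0.24, -0.13, -0.16 and 0.11 (limma adjusted p = 0.614). C6 gave -0.18, -0.47, 0.39 and 0.80 (limma adjusted p = 0.381). Neither had 1 direction. C9, which forms the ring of the attack complex, passed as higher (log2 fold change 0.73 ± 0.25 SE, limma adjusted p = 0.108), with 0.69, 0.72 and 1.42 on the 3 arrays of the same dye orientation and -0.56 on the dye-swapped array. With the dye term C9 was 0.19 (limma adjusted p = 0.589). Without pair 3 the C9 log2 fold change was 0.39, and without pair 1 it was 1.07.

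CD59 is the membrane protein that stops C9 from joining the attack complex, and Cd59a is its widely expressed mouse gene. Cd59a gave 0.42, 0.36, 0.23 and 0.10, so every array had the Rap1-deficient liver higher. The normalized log2 intensities were 11.40, 11.34, 11.28 and 11.03 in Rap1-deficient liver, against 10.98, 10.97, 11.05 and 10.93 in wild-type liver, and the lowest Rap1-deficient value lay among the wild-type values. It rose 1.18-fold (log2 fold change 0.24 ± 0.094 SE, limma adjusted p = 0.142). The call was lost in 9 of 13 alternatives, each time with the same sign, and the adjusted p over all 13 was 0.083 to 0.472. Its neighbour Cd59b, a near copy, gave 0.10, 0.17, 0.11 and -0.05, and whether the probes tell the copies apart was not tested. Cd55, which speeds the decay of the C3-cleaving enzymes on the cell surface, gave -0.20, -0.01, -0.17 and -0.30. Its 4 values had the same sign, but it did not pass (log2 fold change -0.19 ± 0.087 SE, limma adjusted p = 0.186).

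Among the fluid-phase regulators C4bp fell. C4bp binds C4b and is a cofactor for its cleavage by factor I. Its log2 ratios were -0.40, -0.04, -0.58 and -0.10, with intensities of 14.84, 15.01, 14.63 and 15.05 in Rap1-deficient liver, against 15.24, 15.04, 15.21 and 15.15 in wild-type liver. The genotypes overlapped, and the fall was 1.23-fold (log2 fold change -0.30 ± 0.12 SE, limma adjusted p = 0.142). The call was lost in 7 of 13 alternatives, among them median centring (-0.10) and the dye term (-0.20), and the adjusted p over the 13 was 0.053 to 0.702. Cfi, which encodes factor I, gave -0.45, -0.24, -0.16 and 0.06 (limma adjusted p = 0.373). Clu, encoding clusterin, an inhibitor of the attack complex, gave 0.03, -0.01, -0.12 and 0.18, so no array moved it far. Vtn, encoding vitronectin, gave 0.41, 0.33 and 0.34 on the 3 arrays of the same orientation and -0.59 on the dye-swapped array (limma adjusted p = 0.294). Serping1, encoding the inhibitor of C1r and C1s, gave -0.54, -0.20, -0.47 and 0.63 on its brightest probe (limma adjusted p = 0.848). Its second probe gave 0.37, -0.47, 0.33 and 1.28, which differs in sign from the brightest probe on the unswapped arrays of pairs 1 and 2, although both probes were highest in pair 3.

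The plot of the arrays by dye orientation shows which complement genes differed between the dye orientations. The effect of the dye cannot be told apart from that of the 1 array that carried the swap. In 6 of the 28 genes, namely C1s1, C3, C9, Mbl1, Mbl2 and Vtn, the dye-swapped array had the opposite sign to all 3 others. The same was true of 41.7% of all named genes. C8b and C8a lie instead at the lower left, with both orientations negative.

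**Figure D3:**
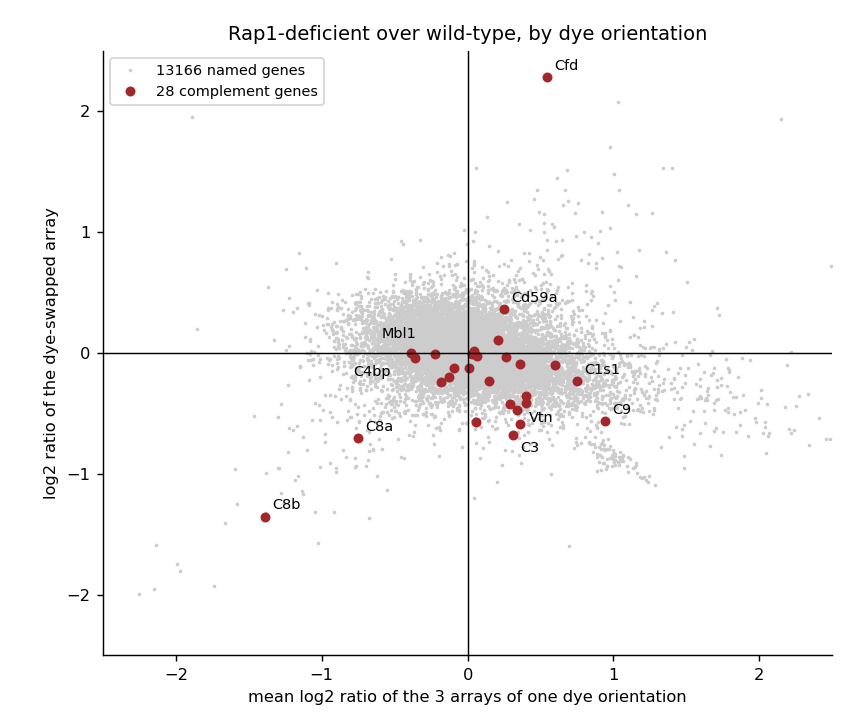
Mean log2 ratio of the 3 arrays with the same dye orientation (x axis) against the log2 ratio of the dye-swapped array (y axis), for 28 complement genes (red) and all 13166 named genes (grey). C8b, C8a and Cfd stand apart from the cloud, and C1s1 and C9 lie to the right with negative values on the dye-swapped array; 18 named genes lie beyond the plotted range.

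In the classical pathway no gene rose or fell by the rule, but the 3 chains of C1q varied between the pairs. C1qa, C1qb and C1qc are adjacent on chromosome 4 and are transcribed mainly by macrophages, which in liver include the Kupffer cells. C1qa gave -0.41, -0.41, 0.23 and 1.38. C1qb gave -0.26, -0.10, 0.50 and 1.54, and C1qc gave -0.39, -0.09, 0.28 and 1.19. All 3 were thus lower in the Rap1-deficient liver of pair 1 on either dye and higher in those of pairs 2 and 3. None passed (limma adjusted p = 0.426 for C1qa, 0.220 for C1qb and 0.321 for C1qc). The SD over the 3 pairs was 0.91, 0.87 and 0.72 for C1qa, C1qb and C1qc, where the median over named genes was 0.168. Only 1.25%, 1.48% and 2.43% of named genes varied more between pairs. On the 3 unswapped arrays the normalized log2 intensities of C1qa, C1qb and C1qc varied more in Rap1-deficient than in wild-type liver. They spanned 9.87 to 11.72, 9.72 to 11.45 and 10.74 to 12.39 in Rap1-deficient liver. In wild-type liver they spanned 10.29 to 10.34, 9.88 to 9.97 and 11.12 to 11.21. The wild-type values on the dye-swapped array were 10.58, 10.37 and 11.03. Cfp, encoding properdin, which is made by myeloid cells, gave -0.54, -0.35, 0.40 and 1.33, the same order, with an SD of 0.89 (limma adjusted p = 0.383).

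The size of these 4 values, and the sign of those of C1qa and Cfp, changed with the pairs kept. Without pair 1 they passed as higher, with log2 fold changes of 0.81 for C1qa, 1.02 for C1qb, 0.73 for C1qc and 0.87 for Cfp (limma adjusted p = 0.101, 0.049, 0.079 and 0.057). That setting also drops the dye-swapped array, and 3079 of 13166 named genes passed as higher in it. Without pair 3 the 4 genes had log2 fold changes of -0.09, 0.16, 0.02 and -0.02, and none passed. Markers of macrophages moved with them. Of 12 Kupffer cell and macrophage markers 11 were on the array and 10 were tested, and all 10 were highest in pair 3, as were 34.1% of named genes. Their median log2 ratio was -0.52, -0.29, 0.09 and 1.24 on the 4 arrays. Csf1r, the receptor that macrophages need to survive, gave -0.45, -0.14, 0.38 and 1.34. The summed intensity of the 11 markers ran from 25434 to 91973 over the arrays in Rap1-deficient liver, and from 38962 to 41489 in wild-type liver, so the spread lay in the Rap1-deficient channel. Of the 10 markers 1 passed as higher (Lyz2) and 1 as lower (Vsig4, which is also a complement receptor), neither with 1 direction on all 4 arrays. The part of macrophage number in the C1q and Cfp values was not tested, and in whole liver more cells of a type and more RNA per cell cannot be told apart. Monocyte and neutrophil markers were also highest in pair 3 in 6 of 7 tested, none of which passed, with a median of -0.23, -0.18, -0.17 and 1.44.

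The remaining classical genes were likewise highest in pair 3, which makes 7 of 7. C4b, a component shared with the lectin route, gave -0.25, -0.03, 0.19 and 0.86 (limma adjusted p = 0.320). C2, its partner in the C3-cleaving enzyme, gave -0.48, -0.12, -0.07 and 0.57 (limma adjusted p = 0.809). C1ra, encoding a C1r protease, gave -0.31, -0.57, -0.06 and 0.53 on its brightest probe (limma adjusted p = 0.973). A second C1ra probe gave 0.18, -0.44, 0.43 and 0.89 (log2 fold change 0.40 ± 0.20 SE, limma adjusted p = 0.212), with the opposite sign on the unswapped arrays of pairs 1 and 2. C1s1, encoding a C1s protease, was the classical gene that passed, with 0.69, 0.67 and 0.87 on the arrays of the same orientation and -0.23 on the dye-swapped array (log2 fold change 0.59 ± 0.14 SE, limma adjusted p = 0.057). With the dye term it was 0.26 (limma adjusted p = 0.205). C1ra and C1s1 lie beside near copies, C1rb and C1s2, and C4b has a near copy in C4a, so that each of these values may hold signal of the copy.

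C3, the component on which all routes meet, gave 0.24, -0.68, 0.12 and 0.57 on its brightest probe (log2 fold change 0.16 ± 0.16 SE, limma adjusted p = 0.523). A second C3 probe gave 0.53, -0.66, 0.27 and 0.67. Both probes were thus lower on the dye-swapped array alone. With the dye term C3 was -0.19 (limma adjusted p = 0.435), so the sign of its mean changed with that term.

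The acute phase proteins, which the liver makes in inflammation, stood with the C1q genes in being highest in pair 3. Of 21 tested acute phase genes 19 were highest in pair 3, and their median log2 ratio was -0.25, -0.26, 0.18 and 1.24. Hp, encoding haptoglobin, gave 0.53, -0.17, 0.45 and 1.81. Among the complement genes 19 of 28 were highest in pair 3, against 34.1% of all named genes. By role these were 7 of 7 classical, 5 of 5 fluid-phase regulator, 3 of 6 terminal, 2 of 3 alternative and 1 of 4 lectin genes and C3. Of the acute phase genes 7 passed as higher and 2 as lower, and 1 and 2 of these had 1 direction on all 4 arrays, against 18.0% higher and 16.1% lower, and 6.02% and 7.00% with 1 direction, over all named genes. The coagulation factors, liver products of another plasma cascade, had 15 of 23 highest in pair 3 but a median of 0.01 there, and 4 passed as higher and 6 as lower, beside the same backgrounds of 18.0% and 16.1%.

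**Figure D4:**
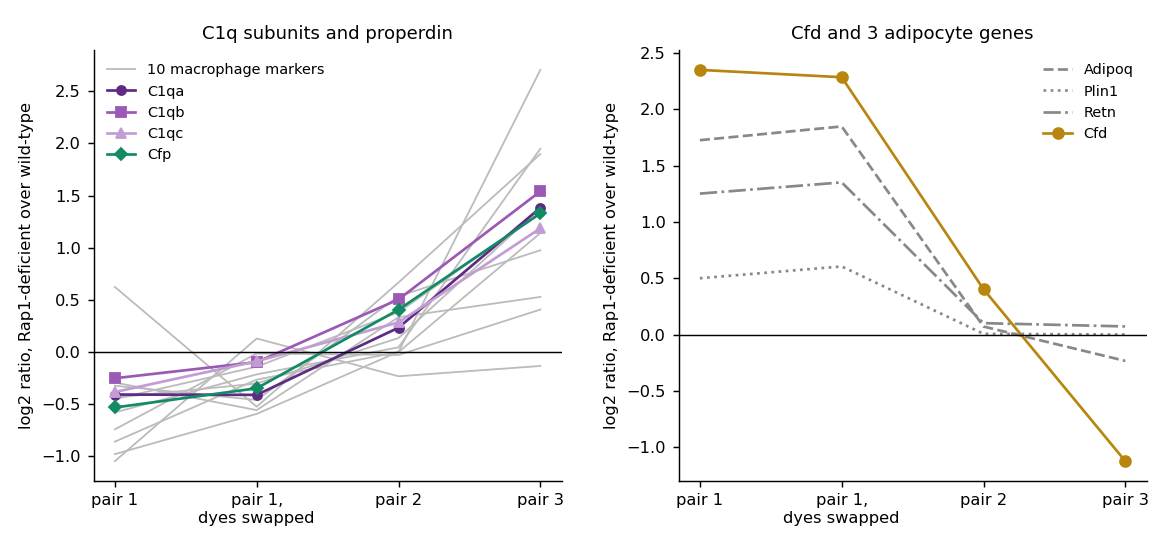
Log2 ratio of Rap1-deficient over wild-type liver (y axis) on each array (x axis): left, the 3 C1q genes and Cfp over 10 macrophage markers in grey, right, Cfd with Adipoq, Retn and Plin1. The C1q genes and Cfp are below 0 in pair 1 on either dye and between 1.19 and 1.54 in pair 3. Cfd runs the other way and has its high values, 2.35 and 2.28, in pair 1. Adipoq and Plin1 were not tested. Adrb3, an adipocyte marker that fell on its brightest probe, is not drawn.

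Cfd, encoding factor D or adipsin, which cleaves factor B, ran against the C1q genes. It gave 2.35, 2.28, 0.40 and -1.12, so that it was higher in the Rap1-deficient liver of pair 1 on either dye and lower in that of pair 3. In pair 3 its signal was not well above background in Rap1-deficient liver, so the ratio of -1.12, and the spread over pairs that includes it, are not exact. Cfd did not pass (log2 fold change 0.53 ± 0.61 SE, limma adjusted p = 0.565). Adipsin is made mainly by adipocytes. Of 6 adipocyte markers, 2 were tested, namely Retn and Adrb3. Lep and Acvr1c were not well above background on any array. Adipoq exceeded it in Rap1-deficient liver on 3 of 4 arrays and in wild-type liver on 0 of 4. Adipoq, encoding adiponectin, gave 1.73, 1.85, 0.07 and -0.23. Retn, encoding resistin, gave 1.25, 1.35, 0.10 and 0.07. Both had their highest ratios in pair 1, as Cfd did. The ratios of Adipoq are not exact, since its wild-type signal was not well above background on any array. Adrb3 fell on its brightest probe, with -1.86, -0.52, -1.32 and -1.21, while a dimmer probe gave 0.21, -0.16, 0.25 and -0.07. Over the arrays the 6 markers summed to an intensity of 634 to 1025 in Rap1-deficient liver and 842 to 1069 in wild-type liver. The log2 ratio of these sums was -0.11, 0.28, -0.62 and -0.60 on the 4 arrays. The part of fat cells in the Cfd values was not tested.

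The other alternative pathway gene, Cfb, encodes the protease of the C3-cleaving enzyme. It gave -0.01, -0.23, 0.13 and 0.33 (limma adjusted p = 0.512). In the lectin pathway, Mbl1 passed as lower (log2 fold change -0.36 ± 0.11 SE, limma adjusted p = 0.095), with -0.19, -0.48 and -0.51 on the arrays of the same orientation and 0.004 on the dye-swapped array. Mbl1 was -0.19 with the dye term (limma adjusted p = 0.361), and the call was lost in 5 of 13 alternatives. Mbl2, the other mannose-binding lectin, gave 0.20, -0.42, 0.28 and 0.40 (limma adjusted p = 0.324). Their signs were thus opposite on each of the 4 arrays, and for neither did the dye-swapped array share the sign of the rest. Masp1 gave 0.03, 0.02, 0.31 and -0.20, and Masp2, the protease that cleaves C4, gave 0.22, -0.02, 0.06 and -0.08. On these brightest probes both MASP genes had means within 0.05 of 0. Another Masp2 probe gave 0.08, 0.17, 0.11 and 0.20 (log2 fold change 0.15, limma adjusted p = 0.260). The receptors for the small peptides released from C3 and C5 were too dim to test. C3ar1 exceeded the background clearly in Rap1-deficient liver on 3 of 4 arrays and in wild-type liver on 2 of 4. For C5ar1 these numbers were 0 of 4 and 1 of 4. Their levels in whole liver were thus not measured well enough to compare.

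The 250 bases before C1qb and C1qc are printed because these neighbours varied together between pairs, with the same motifs in capitals (RefSeq, GRCm38.p6, both on the minus strand, starts 6.7 kb apart). The windows are chr4:136886201-136886450 for C1qb and chr4:136892915-136893164 for C1qc.
C1qb: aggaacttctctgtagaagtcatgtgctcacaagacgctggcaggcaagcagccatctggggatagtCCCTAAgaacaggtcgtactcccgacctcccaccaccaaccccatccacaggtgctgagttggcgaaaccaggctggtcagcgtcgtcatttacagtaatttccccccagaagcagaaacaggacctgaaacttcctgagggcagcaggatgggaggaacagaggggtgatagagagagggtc
C1qc: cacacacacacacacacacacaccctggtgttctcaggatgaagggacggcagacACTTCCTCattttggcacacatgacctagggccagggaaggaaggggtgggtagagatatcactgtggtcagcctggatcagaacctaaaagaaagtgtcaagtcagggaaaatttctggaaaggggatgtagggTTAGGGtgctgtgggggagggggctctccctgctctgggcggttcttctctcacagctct
C1qc holds PU.1, a motif of the myeloid factor of that name, 188 bases before its start, which 2.44% of all windows and 1 of the 24 complement windows held. Each window holds the telomere repeat unit once, as CCCTAA 178 bases before the start of C1qb and as TTAGGG 55 bases before that of C1qc. Neither holds the HNF1 motif that is in the C8 windows.

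A wider list of 28 other complement genes, receptors and relatives had 26 genes on the array and 23 tested. Of these 4 passed as higher and 8 as lower, and 2 rose and 6 fell with 1 direction on all 4 arrays, where 34.1% of all named genes passed and 6.02% rose and 7.00% fell by that rule. Susd4, a membrane inhibitor of complement, fell 1.59-fold, with -0.67, -0.80, -0.63 and -0.65 (log2 fold change -0.67 ± 0.082 SE, limma adjusted p = 0.040). It also passed with the dye term (limma adjusted p = 0.033). Cfhr2 fell 1.23-fold (limma adjusted p = 0.070) on its brightest probe, while a second Cfhr2 probe gave 0.36, -0.42, 0.19 and 0.24. Colec10, a collectin of the lectin pathway, fell 1.23-fold (limma adjusted p = 0.079). Itgam, a chain of complement receptor 3, fell 1.51-fold on its brightest probe, with -1.28, -0.04, -0.51 and -0.63 (limma adjusted p = 0.040). Cr2, encoding a complement receptor of B cells, rose 1.23-fold (limma adjusted p = 0.079). The other probes of Itgam and Cr2 did not pass, so these calls rest on 1 probe each. The median over the 23 genes was -0.09, against 0.005 over all named genes.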

How the data were processed

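Liver RNA of Rap1-deficient and wild-type mice, read as 3 pairs, was measured on 4 Agilent 2-colour arrays. Each deposited scan holds the intensities of its spots, read by Agilent Feature Extraction (10.7.3.1 per the file headers), the log10 ratio of Cy5 over Cy3, the software's processed intensities and flags for spots above background, saturated or outlying. The authors also deposited a table of normalized log2 ratios. Set against the scans, its dye-swapped column proved to be turned already and its scale smaller. The submitters' processing notes name limma. RNA integrity numbers are given as 6.6 to 8.7 over all samples. Here median spot intensities were background-corrected (normexp, offset 50) and normalized within each array by loess with control spots at weight 0 (limma 3.58.1, R 4.3.3). The dye-swapped ratio was turned and averaged with pair 1. Of 62976 spots 59305 were not controls, giving 55681 probes, and 27513 (49.41%) were tested because every array flagged them as well above background for 1 genotype or both. Per channel 50.1% to 56.4% of spots carried this flag and 0 were saturated. Precision is limited by how few arrays there are. Probes were named by accession through the RefSeq gene table for GRCm38.p6, which named 26056 probes of 19752 genes. For genes with several probes, the brightest was used. Log2 ratios were fitted with lmFit and eBayes and p-values adjusted over the tested probes by the Benjamini-Hochberg method. Bounds for a gene not well above background used the lowest signal among probes above it. Nothing says more of the replicates than that they are separate livers, and whether this holds for the wild-type RNA was not tested.

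Every complement gene is named. Full statistics are given for those past the test, up to 6 other complement genes past the test with 1 direction on all 4 arrays are named by smallest p, and up to 3 markers per list by intensity. The result of 1 of these other complement genes is not reported here. Plin1, Lep, Acvr1c, Lyz2, the near copies and the second probes were named after their values were seen. The genes and lists were chosen with earlier results of these data known. Markers of lymphocytes, endothelial, stellate, bile duct and red cells were listed, and of their tested genes 2 of 7, 3 of 10, 0 of 8, 1 of 3 and 0 of 2 passed as higher and 0, 1, 0, 0 and 0 as lower. Alternatives changed the background correction, normalization, filter, threshold, probe choice, handling of the dye and pairs kept. The fit was tested on simulated log2 ratios with no dye effect and no swapped array. That test does not cover the handling of the dye. Promoter sequences are those of RefSeq in GRCm38.p6. Sequences of array probes, proteins and other promoters were not used here.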

Additional observations from a re-analysis of the deposited data

Results flagged for a closer look

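The 4 arrays were searched for a value far from the other 3 of the same gene, over 30 complement genes and the 23 other complement genes tested. Of the 30, Vtn alone met this, with -0.59 on the dye-swapped array against 0.33 to 0.41 on the others. Of the 23, 3 did, and again at the dye-swapped array: Cr1l with -0.0064, C5ar2 with 0.47 and C1qbp with 0.26. All 4 lone values came from that array, and chance alone marks about 1 gene in 20.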

How the results depend on the processing

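Of the 28 tested complement genes, 7 passed the test. The count was 2 with the dye term, 1 when the dye-swapped array counted as a 4th replicate, 11 without that array, 2 at an FDR of 0.05, and 0 to 16 with 1 pair left out in turn, lowest without pair 2 and highest without pair 1. The count with 1 direction on every array, 4 here, was 2 with the scanner's processed signals, with median centring, with the dye term and at an FDR of 0.05. It was 1 when that array counted as a replicate, 11 without it, when only 3 directions were compared, and 0 to 16 with 1 pair left out. Leaving out a pair also leaves fewer directions to compare, and leaving out pair 1 drops the dye-swapped array. Of all named genes 4495 passed, 2375 higher and 2120 lower. Median centring gave 2881 (2399 higher, 482 lower), the dye term 848, counting the dye-swapped array as a replicate 45, leaving it out 6836, an FDR of 0.05 1106, and leaving out 1 pair 4 to 6086. The authors' table gave 4914 (1837 higher, 3077 lower) and the scanner's processed signals 4237 (1775 higher, 2462 lower). Each array already is a pair, so the test over log2 ratios is paired, and the labels hold no other pairing. The causes were not tested.

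Of 363 log2 fold changes over 28 genes and their alternatives, 41 changed sign, in 17 genes, none of which passed the test, while 32 lost and 20 gained the call. With the dye term, C1qa was -0.0070, C1ra -0.26, C2 -0.057, C3 -0.19, C6 -0.066, Cfb -0.042, Mbl2 -0.064 and Vtn -0.11. With the scanner's processed signals, C1ra was -0.017, C3 -0.13, C8g -0.0088, Cfb -0.021, Cfd -0.15, Masp1 -0.038 and Clu -0.14. With the authors' table of normalized ratios, C1ra was -0.021, C3 -0.063, C8g -0.00052, Cfb -0.046, Masp1 -0.046, Masp2 -0.058, Mbl2 -0.10, Clu -0.26 and Vtn -0.021. Counting the dye-swapped array as a replicate, C1ra was -0.10 and C2 -0.024. With median centring, Hc was 0.14, Cfi 0.064 and Serping1 0.13. With the mean over probes, Serping1 was 0.22. Leaving out 1 pair in turn, the log2 fold change spanned -0.091 to 0.81 for C1qa, -0.25 to 0.24 for C1ra, -0.19 to 0.25 for C2, -0.051 to 0.34 for C3, -0.36 to 1.36 for Cfd, -0.020 to 0.87 for Cfp, -0.089 to 0.17 for Masp1, -0.011 to 0.081 for Masp2, -0.42 to 0.13 for Serping1 and -0.057 to 0.092 for Clu. C8a and C8b kept their sign in all 13 alternatives.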
